A study of Homo sapiens with 47 samples.

Results

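The 10 genes studied here bind retinoic acid, pair with its receptors or share their DNA sites, and they were followed through the culture of human neuromesodermal progenitor-like cells. They are the retinoic acid receptors *RARA*, *RARB* and *RARG*, the retinoid X receptors *RXRA*, *RXRB* and *RXRG*, the cellular retinoic acid binding proteins *CRABP1* and *CRABP2*, and the COUP-TF orphan receptors *NR2F1* and *NR2F2*. They were chosen by name, and 10 of 10 were found among the 58051 genes listed. All were protein coding and passed the filter on low counts in both models.

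RNA-seq of WA09 (H9) cells, an established human embryonic stem cell line, covered 47 libraries. Whole cultures gave 35 libraries, from undifferentiated cells (t0) and 36 h cells to passages P1 to P10, and came from 3 separate differentiations, called r1, r2 and r3 (P9 from r1 and r2). The other 12 libraries were epithelial (EPI) and mesenchymal (MES) cells, 3 of each at P5 and at P8. After t0, the cells were held in N2B27 without vitamin A, with the WNT agonist CHIR-99021, FGF2, the ROCK inhibitor Y-27632 and AGN193109, a pan-RAR inverse agonist. Every group after t0 therefore carried the same block on retinoic acid signalling, and no culture after t0 was analysed without it. Any change from t0 thus coincides with the start of this medium. EPI and MES cells were separated by how readily they detached in TrypLE, not by a marker. A single cell line was used, so the differentiations share its genome.

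Retinoic acid is made from vitamin A inside cells, is carried there by CRABP proteins, and binds RARs, which sit on DNA as pairs with RXRs. Without ligand, or with an inverse agonist, the pair recruits corepressors to its target genes, and ligand exchanges these for coactivators. COUP-TFs bind similar repeats of the same half-site, can also pair with RXRs, and are widespread in neural and mesenchymal progenitors of the embryo. In the elongating body axis, retinoic acid from the somites meets FGF and WNT signals in the tail bud, and *CYP26A1* clears it there.

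Libraries held 13029491 to 64082859 expected counts. Some libraries stood apart from their group. The 36 h library of differentiation 1 (36h.r1) had *CDX2* at 21.8 TPM, transcript abundance scaled to length and library, against 121 and 181 in the others, and *MSGN1* at 0.56 against 93.4 and 404. In P1.r1, *POU5F1* was at 863 TPM against 18.7 and 5.07. In P10.r1, *SOX2* was at 214 TPM against 0.50 and 0.71. Member calls that changed without them are stated, between consecutive time points by their count alone. In edgeR with differentiation as a block, a gene passed with a false discovery rate (FDR) under 1% if it also changed 2-fold or more and averaged 100 normalised counts or more in the libraries compared. The p-values rest on the spread left after a constant shift per differentiation is taken out. That spread is estimated over all groups of a model.

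Over the 12 time points, 7 of 10 members passed the test for any change, against 27.4% of the 21750 genes tested. These were *RARA*, *RARG*, *RXRB*, *CRABP1*, *CRABP2*, *NR2F1* and *NR2F2*. *RARB* and *RXRG* also had an FDR under 1% (4.73e-06 and 2.55e-05), but their means over the libraries were below 100 normalised counts. *RXRA* did not pass (FDR = 0.084). The call rested on few libraries for several genes. Without differentiation 2, *RXRB* and *CRABP2* alone passed, and without differentiation 3, 4 members passed (*RARA*, *RXRB*, *CRABP1* and *CRABP2*). Without P1.r1 and P10.r1, *RXRA* passed as well (FDR = 3.79e-04).

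**Figure D1:**
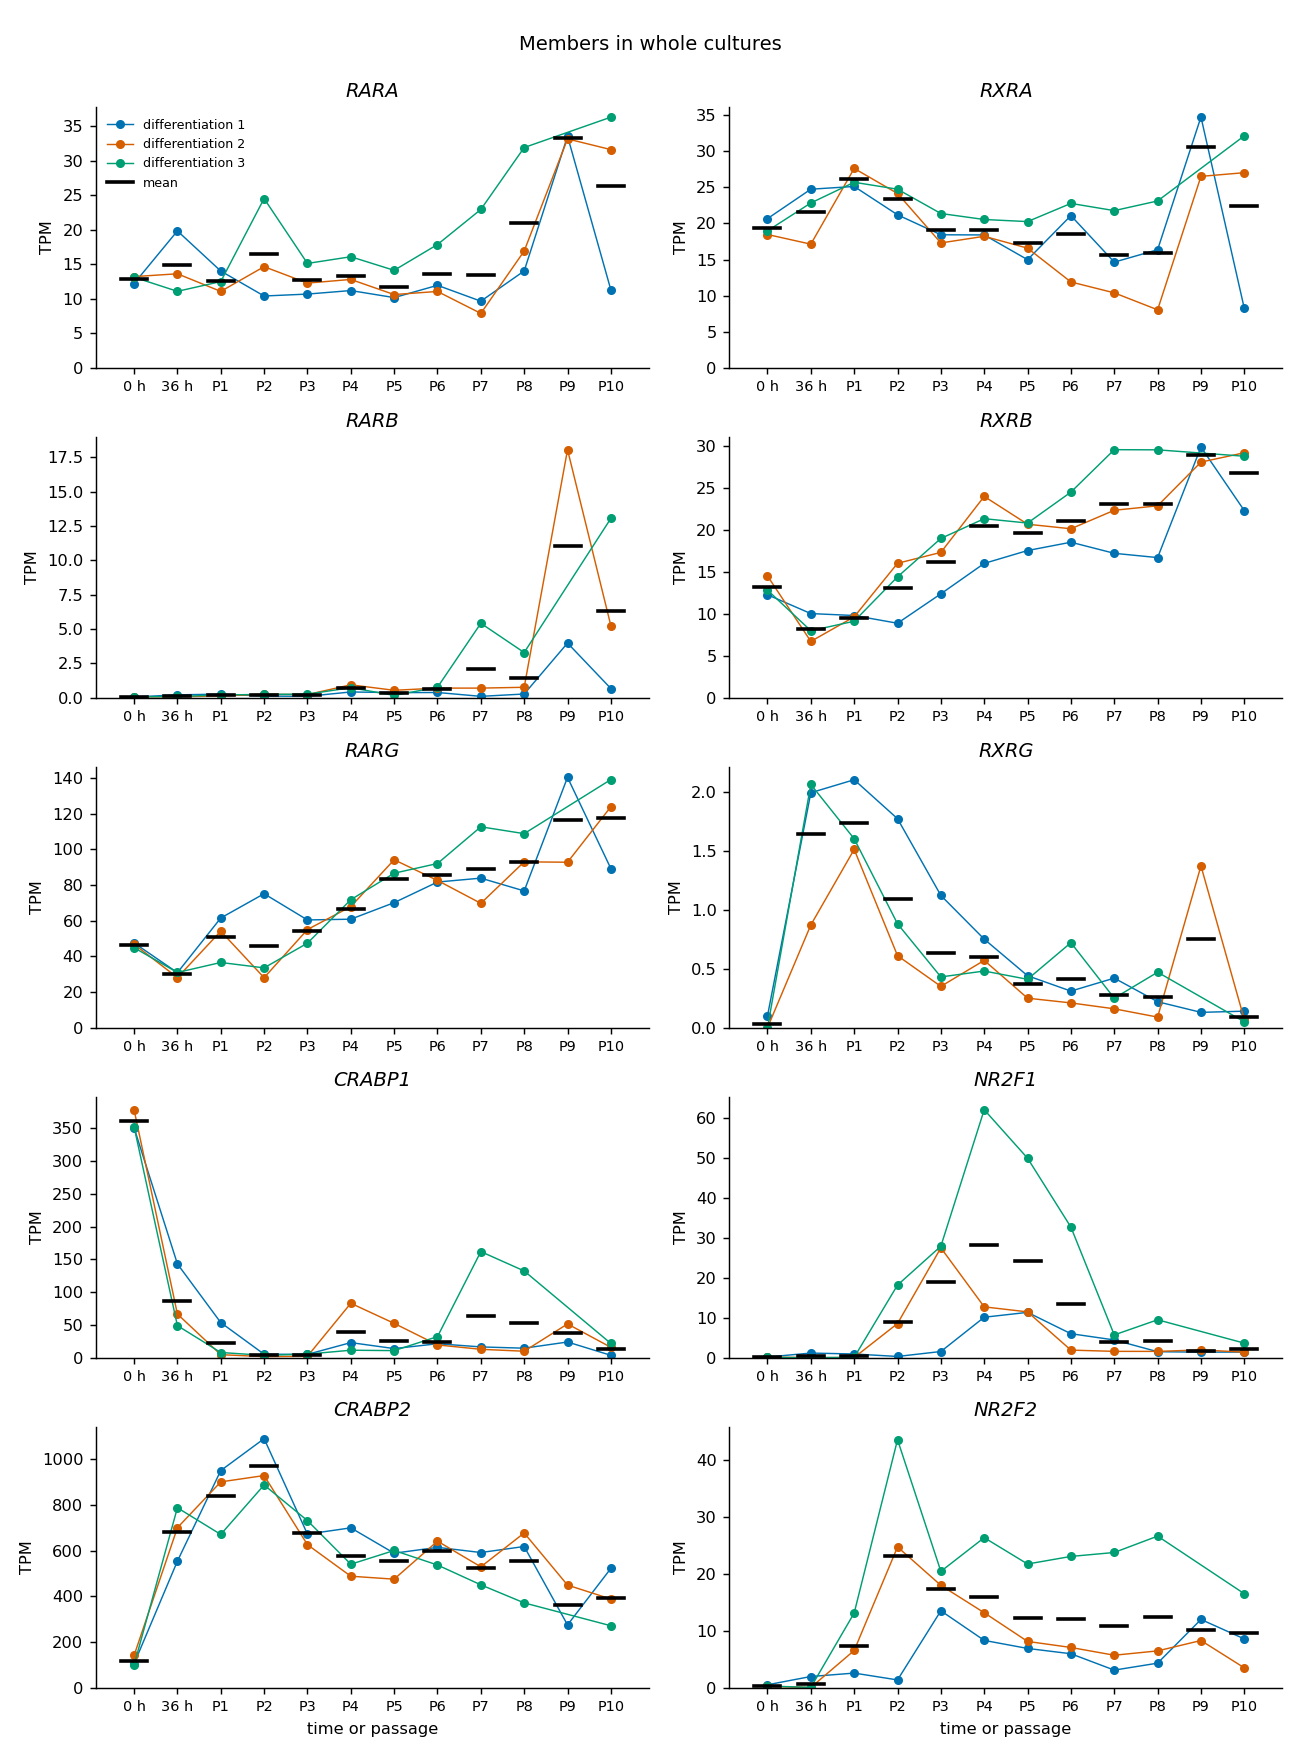
Level of each member (TPM, linear axis from 0) in the whole cultures at each time point. Coloured points are the libraries of a differentiation, joined by lines, and black bars are group means. The P9 library of differentiation 3 was not analysed here, so its line runs from P8 to P10. *CRABP1* falls from 351 to 378 TPM at 0 h to under 6 TPM at P2 and P3, while *CRABP2* rises at 36 h.

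Among the RARs, *RARG* had the highest level in all 47 libraries, with 57.5% to 90.5% of the summed RAR TPM and a median of 81.5%. *RARA* held 9.20% to 42.1%, and *RARB* never more than 12.5%. *RARG* (chr12:53210567-53232980, minus strand, GRCh38, as all gene positions here, from GENCODE 29) was measured at 47.5, 46.8 and 44.9 TPM at t0. At 36 h it was at 30.9, 28.1 and 31.0 TPM, so all 3 libraries lay below all 3 of t0. That difference did not pass (log2 fold change -0.58, SE 0.29, FDR = 0.215). At P5 it was at 70.1, 94.1 and 86.6 TPM, and the groups did not overlap. *RARG* rose 2.53-fold from 36 h to P5 (log2 fold change 1.34, SE 0.30, FDR = 0.00132). At P10 it reached 89.2, 124 and 139 TPM, a rise from t0 that passed (log2 fold change 1.35, SE 0.30, FDR = 5.4e-04). Without differentiation 2 or 3, that FDR was 0.0235 or 0.0207. In the order of its 16 group means, from 117 TPM at P10 down to 30.0 at 36 h, a single pair of neighbours did not overlap, P4 and P3.

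*RARA* (chr17:40309192-40357643, plus strand), the most widely expressed RAR in many tissues, did not pass against t0 before P9. It was at 12.2, 13.2 and 13.1 TPM at t0, at 19.8, 13.6 and 11.1 TPM at 36 h, at 10.4, 14.6 and 24.5 TPM at P2 and at 10.2, 10.6 and 14.1 TPM at P5. From P6 to P8 it was highest in differentiation 3, with 31.9 TPM at P8 against 14.0 and 16.9 in the others. The P9 libraries were at 33.5 and 33.2 TPM, above every whole culture from t0 to P8, while P8 MES of differentiation 3 was at 34.7 TPM. *RARA* passed at P9 against t0 (log2 fold change 1.59, SE 0.35, FDR = 5.12e-04), but not at P10 (0.91, SE 0.32, FDR = 0.0186). The P10 libraries were split, with 11.3 TPM in P10.r1 and 31.6 and 36.3 in the others. Without P1.r1 and P10.r1 the P10 change was 1.24 (FDR = 0.00111) and passed. Without differentiation 2, which leaves P9 with 1 library assumed to vary like the other groups, the P9 change had an FDR of 0.0305, and without the block for differentiation it did not pass either (1.41, FDR = 0.01). No neighbours in the order of its group means, from 33.3 TPM at P9 to 9.62 in P5 EPI, lay apart.

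*RARB* (chr3:25174332-25597932, plus strand) is itself a classical target of retinoic acid, through a repeat of the receptor half-site in the promoter of its RARβ2 transcript. RefSeq promoter windows (GRCh38.p14, 250 bases before to 50 after a transcript start) were found for all 10 members, 19 windows in all. Each was searched on both strands for a pair of half-sites in direct repeat, where a half-site was AGGTCA, a variant of it (AGTTCA), a second variant written GGGTCA or the last one, spelled GGTTCA, with 1, 2 or 5 bases between them (DR1, DR2, DR5). A single member window held such a repeat, that of *RARB* at chr3:25428013-25428312 on the plus strand. It is shown because this gene had the widest fitted range of the 3 RARs, and the capitals mark the 2 half-sites of the repeat. Any other half-site in the window is in lower case.

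RARB promoter: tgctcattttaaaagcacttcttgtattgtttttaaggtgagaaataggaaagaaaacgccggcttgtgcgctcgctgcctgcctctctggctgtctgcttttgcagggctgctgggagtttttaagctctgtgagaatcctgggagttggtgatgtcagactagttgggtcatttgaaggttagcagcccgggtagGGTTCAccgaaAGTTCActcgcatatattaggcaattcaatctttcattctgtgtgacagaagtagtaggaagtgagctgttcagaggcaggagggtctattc

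The repeat is a DR5 at chr3:25428210-25428226, which starts 53 bases before the transcript start. Of 34943 RefSeq windows of that length, 0.0887% held a DR5, 0.132% a DR1 and 0.0372% a DR2. A half-site alone was in 38.6% of them and in 10 of the 19 member windows. These are matches of letters, and the windows of the other 9 members held no such repeat.

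At t0, *RARB* was at 0.05, 0.07 and 0.07 TPM, from 3, 3 and 6 counts. From t0 to P6 no library exceeded 0.94 TPM. In differentiation 3 it reached 5.42 TPM at P7 and 3.29 at P8, against at most 0.76 in the others at those passages. The sum of 7 neural crest markers was also highest in differentiation 3, at 684 TPM at P7 and 688 at P8. In the others it was 102 and 129 TPM at P7, and 109 and 343 at P8. Its part in the *RARB* levels was not tested. At P9 *RARB* was at 3.98 and 18.1 TPM, and at P10 at 0.67, 5.24 and 13.1 TPM. *RARB* thus rose in all P9 and P10 libraries against t0 (P9, log2 fold change 7.47, SE 1.23, FDR = 2.47e-05, P10, 6.15, SE 1.16, FDR = 1.04e-04). Against P8, P9 and P10 together did not pass (3.06, SE 0.90, FDR = 0.0313). Without P1.r1 and P10.r1 that change passed (3.29, FDR = 0.00515), as it did without differentiation 1. Without differentiation 2, neither change from t0 passed (FDR = 0.0239 at P9, then a single library, and 0.0195 at P10), and without differentiation 3 the mean at P10 was under 100. *RARB* shares 28 exonic bases with *TOP2B* on the other strand, and the strand setting of the counts was not stated. *TOP2B* was at 181 to 198 TPM at t0 and 191 to 466 TPM at P9 and P10, and its part in the *RARB* counts was not tested.

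**Figure D2:**
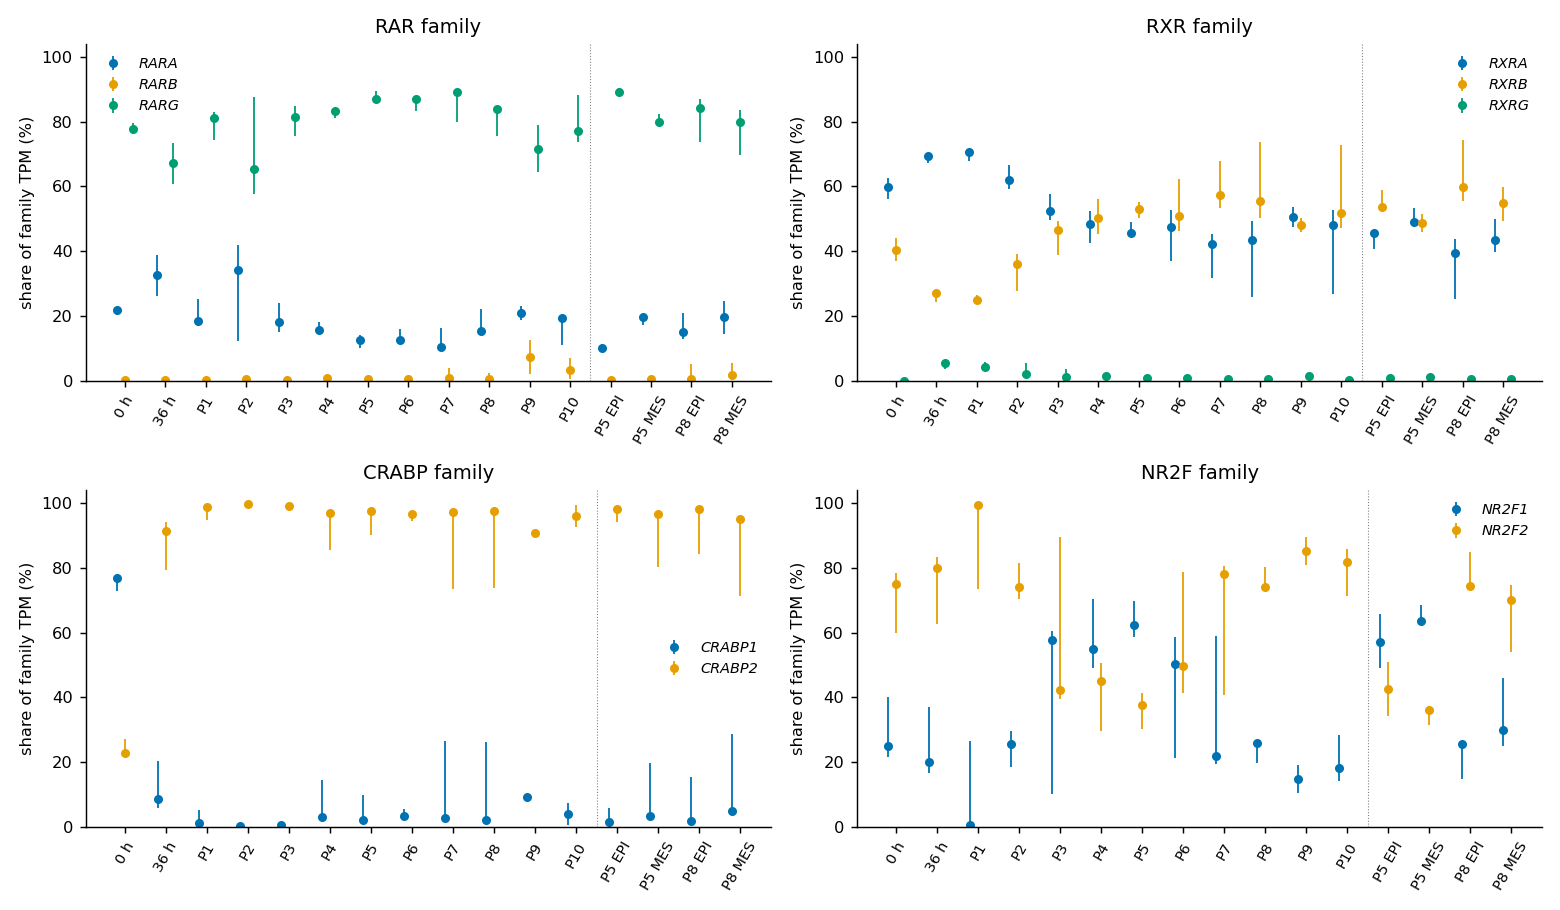
Share of each family's summed TPM (%) held by each member, per group. Points are medians over the libraries and bars run from the lowest to the highest library, with 3 libraries per group and 2 at P9. *RARG* holds the most among the RARs in every group, *RXRB* overtakes *RXRA* in median from P4 on apart from P9 and P5 MES, and *CRABP2* replaces *CRABP1* after 0 h.

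The RXRs are the shared partners of the RARs and of many other nuclear receptors. *RXRA* (chr9:134317098-134440585, plus strand) stayed between 8.03 and 34.8 TPM in whole cultures. It was at 20.7, 18.5 and 19.0 TPM at t0, at 15.0, 16.6 and 20.3 TPM at P5, and at 34.8 and 26.5 TPM at P9. At P10, 8.22 TPM in P10.r1 stood against 27.0 and 32.2 TPM in the others. Against P8, the change at P9 and P10 was 0.89 (SE 0.30, FDR = 0.0562), and 1.11 (SE 0.20, FDR = 3.11e-04) without P1.r1 and P10.r1, when it passed.

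*RXRB* (chr6:33193588-33200688, minus strand) was at 12.3, 14.5 and 12.8 TPM at t0 and at 10.0, 6.70 and 7.97 TPM at 36 h. The groups did not overlap, and the FDR was 0.0069, but the decrease was under 2-fold (log2 fold change -0.71, SE 0.17). By P5 it was at 17.5, 20.6 and 20.8 TPM, above all libraries of t0 and 36 h. From 36 h to P5 *RXRB* rose 2.15-fold (log2 fold change 1.10, SE 0.17, FDR = 3.5e-05). At P9 it was at 29.8 and 28.0 TPM, a rise of 1.14 from t0 (SE 0.19, FDR = 2.25e-05) that passed. It also passed without differentiation 1 or 2, when P9 held a single library whose spread was taken from the other groups, and without differentiation 3, which leaves P9 as it is. *RXRB* and *SLC39A7* share 244 exonic bases on opposite strands, and *SLC39A7* ran from 63.6 to 176 TPM.

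*RXRG* (chr1:165400917-165445355, minus strand) was the scarcest member at t0, with 3, 0 and 0 counts. It appeared at 36 h at 1.99, 0.87 and 2.06 TPM, with 240 counts over the group, and was at 2.10, 1.51 and 1.60 TPM at P1. Its share of counts was 90.0 times that of t0 at 36 h, with an exact 95% counting interval of 30.4 to 440. The FDR was 2.03e-04, but the mean of 40.7 normalised counts kept it from passing. After P1, the group mean of *RXRG* was lower at each time point through P5, when *RXRG* was at 0.44, 0.25 and 0.41 TPM. P9.r2, at 1.37 TPM, was the only library after P2 above 1.12 TPM. Of the RXR total, *RXRG* held at most 6.27%.

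From t0 to 36 h the TPM of the cytosolic binding proteins moved in opposite directions in every differentiation, and the change of *CRABP2* passed. CRABP2 hands retinoic acid to RARs, and CRABP1 is linked to its storage and breakdown. At t0, *CRABP1* (chr15:78340324-78348230, plus strand) held 72.9% to 78.2% of the summed CRABP TPM, and at P2 0.18% to 0.48%. The summed CRABP level was 451 to 519 TPM at t0 and 891 to 1096 TPM at P2.

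*CRABP2* (chr1:156699606-156705816, minus strand) was at 105, 141 and 98.5 TPM at t0 and at 554, 700 and 788 TPM at 36 h. It rose 5.94-fold (log2 fold change 2.57, SE 0.24, FDR = 1.21e-07), the only member of 10 to pass at 36 h against t0, when 2.71% of all genes passed. The call held under every alternative tried, and without 36h.r1 the change was 2.78. The highest levels were at P2, at 1090, 929 and 887 TPM. They were lower later, at 275 and 449 TPM at P9 and 522, 388 and 271 TPM at P10. *CRABP2* passed against t0 at 11 of 11 time points, and no library after t0 overlapped with t0. Without differentiation 2, which leaves 1 library at P9, the P9 change was 1.21 and did not pass.

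*CRABP1* was at 351, 378 and 352 TPM at t0. At 36 h it was at 143, 66.6 and 48.9 TPM, below t0 in every library, with a change that did not pass (log2 fold change -2.10, SE 1.06, FDR = 0.213). At P2 it was at 5.30, 1.67 and 3.64 TPM and at P3 at 5.08, 2.15 and 5.47 TPM. At P2, *CRABP1* fell by 6.63 on the log2 scale against t0 (SE 1.31, FDR = 2.88e-04). It then differed between differentiations. Differentiation 2 reached 83.1 TPM at P4 and 52.4 at P5. Differentiation 3 reached 162 TPM at P7 and 132 at P8, when the others were at 9.87 to 16.5 TPM. The sum of neural crest markers was also highest in differentiation 3 at P7 and P8, at 684 and 688 TPM. Its part in the *CRABP1* levels was not tested. *CRABP1* passed against t0 at 5 of 11 time points (P2, P3, P5, P6 and P10), lower each time. It passed at 9 in DESeq2 with the same block, at 10 with an FDR under 5%, at 8 without P1.r1 and P10.r1, and at 3, 1 and 6 without differentiation 1, 2 and 3. All libraries after t0 lay below those of t0.

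Both COUP-TFs first passed against t0 within the first passages. At t0, *NR2F1* (chr5:93583224-93594615, plus strand) was at 0.17, 0.16 and 0.08 TPM and *NR2F2* (chr15:96325938-96340263, plus strand) at 0.51, 0.24 and 0.29 TPM. At 36 h, *NR2F1* was at 1.16 TPM in 36h.r1 and at 0.01 TPM in both others. *NR2F2* was at 1.96 TPM in that library and at 0.04 and 0.05 TPM in the others. The fitted change at 36 h was 2.15 for *NR2F1* (SE 1.48, FDR = 0.389) and 2.41 for *NR2F2* (SE 1.16, FDR = 0.191). Without 36h.r1 both fitted changes turned negative (FDR = 0.29 and 0.244), with 1 count of *NR2F1* in each remaining 36 h library and 3 and 7 of *NR2F2*, so neither a direction nor a size is given.

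*NR2F2* came first. At P1 it was at 2.56, 6.52 and 13.1 TPM, and it passed against t0 (log2 fold change 5.22, SE 1.18, FDR = 0.00153) at P1 and at each later passage. None of these 10 calls passed without differentiation 2, when their FDR ran from 0.0112 to 0.0572, and 4 passed without differentiation 3. At P2 it was at 1.36, 24.7 and 43.5 TPM. *NR2F1* was at 0.93, 0.04 and 0.09 TPM at P1, where it did not pass (FDR = 0.696). At P2, *NR2F1* was at 0.31, 8.56 and 18.2 TPM, and at P3 at 1.55, 27.5 and 27.9 TPM. Against t0, *NR2F1* passed from P2 to P7, but at no time point without differentiation 2 or without differentiation 3. Without the block for differentiation, its P7 call was lost (FDR = 0.0128). Both genes were lowest in differentiation 1 at P2 and P3. *TBX6*, a paraxial mesoderm marker, was highest in that differentiation, at 140 TPM at P2 and 118 at P3 against 4.66 to 27.3 in the others, while at P1 both *TBX6*, at 2.92 TPM against 193 and 245, and *NR2F2* were lowest in differentiation 1. Whether these levels are related was not tested.

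From 36 h to P5 *NR2F1* rose (log2 fold change 4.95, SE 1.40, FDR = 0.00854). At P5 it was at 11.4, 11.5 and 49.99 TPM. Without 36h.r1 it passed as well (FDR = 2.69e-04), and *NR2F2*, at 6.88, 8.11 and 21.7 TPM at P5, then passed too (FDR = 2.0e-05, against a change of 3.45 with an FDR of 0.0143 with it). The sizes without 36h.r1 rest on those few counts and are not given. In all, 3 of 10 members passed from 36 h to P5 (*RARG*, *RXRB* and *NR2F1*), against 8.33% of genes. Over the same interval the sum of 7 neural crest markers went from 20.9 to 73.8 TPM to between 147 and 431, that of 4 limb and lateral plate markers from 1.32 to 7.09 TPM to between 209 and 312, and that of 5 pluripotency markers from 1541 to 3286 TPM to between 562 and 818. Within the pluripotency list, *POU5F1* went from 593 to 1504 TPM at 36 h to between 0.59 and 0.9 TPM at P5. The part of these markers in the member levels was not tested. Without differentiation 2 no member passed, and without differentiation 3 *RXRB* alone did. With only the libraries of 36 h and P5 in the model, *RARG* alone did.

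From P5 to P8 neither COUP-TF passed. *NR2F1* was at 1.50, 1.58 and 9.50 TPM at P8, below P5 in every differentiation (log2 fold change -2.53, SE 1.19, FDR = 0.36). *NR2F2* was at 4.30, 6.45 and 26.6 TPM at P8 (change from P5 -0.13, SE 0.91, FDR = 0.985). *NR2F1* held 58.6% to 69.8% of the summed NR2F TPM at P5 and 10.4% to 19.1% at P9. *NR2F1* and its antisense neighbour *NR2F1-AS1* share 158 exonic bases. *NR2F1-AS1* was at 1.95 to 3.12 TPM at t0, above *NR2F1*, and at 5.06 to 23.7 TPM at P5, below it, and the reads of the shared bases cannot be told apart without the strand setting.

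Against t0, each time point was compared in turn. Of the 10 members, 2 passed at P1 (background 8.79% of genes), 4 at P2 (12.8%), 4 at P3 (13.6%), 3 at P4 (14.0%) and 4 at P5 (14.3%). Later, 4 passed at P6 (14.6%), 3 at P7 (15.2%), 2 at P8 (15.4%), 6 at P9 (19.7%) and 5 at P10 (18.3%). These comparisons share the t0 libraries. From P1 to P8 the members that passed were *CRABP1*, *CRABP2*, *NR2F1* and *NR2F2*. At P9, *RARA*, *RARB*, *RARG* and *RXRB* joined *CRABP2* and *NR2F2*. Without P1.r1 and P10.r1, 3 members passed at P1, where *CRABP1* joined (-6.12, FDR = 0.00114), and 7 at P10, where *RARA* and *RXRB* joined (*RXRB*, 1.01, FDR = 6.21e-05), when 2549 and 4180 of 21680 genes passed. *CRABP1* then passed at P4 and P8 too, and *NR2F1* at P8, as it also did without 36h.r1. Over the 11 time points 38 member calls passed, 12 without differentiation 2 and 25 without differentiation 3. Between consecutive time points, where 0.469% of tests passed over 11 steps, the first step of *CRABP2* was the only member call.

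**Figure D3:**
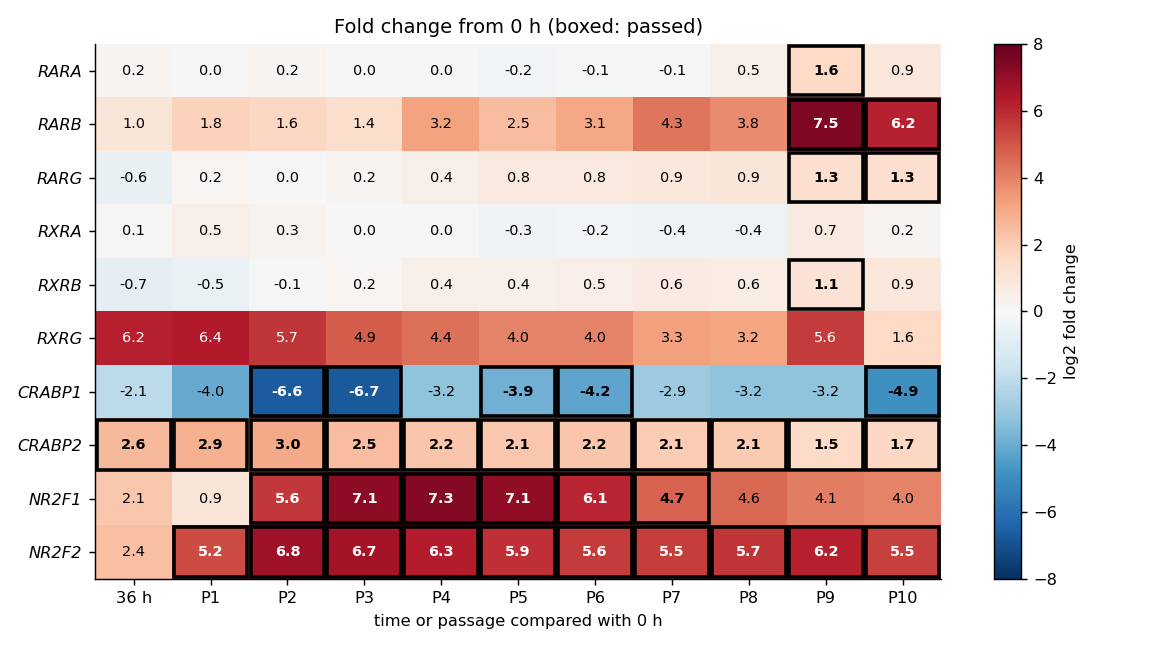
Fitted log2 fold change of each member at each time point against 0 h (colour and printed value, red higher and blue lower). Boxes and bold print mark changes that passed. *CRABP2* is boxed at all 11 time points, and the RARs and *RXRB* are boxed at P9 or P10. Values of *RXRG* rest on 3 counts over the 0 h group.

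Between the later stages no member passed in edgeR. At P8 against P5, 0 of 10 passed, when 0.00920% of genes did, with 2 members and 2892 of 21750 genes at an unadjusted p under 0.05 and 0 member calls in DESeq2. At P9 and P10 against P8, 0 of 10 passed against 1.25% of genes, with 5 members and 5708 of 21750 genes at an unadjusted p under 0.05. DESeq2 called *RARB* there (log2 fold change 3.07, FDR = 0.00257). Without P1.r1 and P10.r1, *RARB* and *RXRA* passed in edgeR. Markers of other cells differed between these groups. From P8 to P9, the sum of 5 pre-neural progenitor markers went from 162 to 695 TPM to between 16.5 and 16.7, that of 5 neuromesodermal markers from 160 to 691 TPM to between 15.3 and 21.1, and that of 5 pluripotency markers from 81.1 to 689 TPM to between 4.85 and 11.9. At P10 they were at 5.24 to 427, 3.26 to 433 and 9.48 to 244 TPM. The pre-neural and neuromesodermal lists share *SOX2*, *CDX2* and *NKX1-2*, so their sums are not separate measures. In P8.r1, *CDX2* was at 356 TPM and *SOX2* at 320 TPM. Within the pluripotency list, *POU5F1* was already at 0.21 TPM or less at P8. The sum of 7 neural crest genes was 109 to 688 TPM at P8, 993 and 1050 at P9, and 187, 868 and 932 at P10, lowest in P10.r1. Its genes did not move one way. From P8 to P9 and P10, *TWIST1* went from 18.6 to 131 TPM to between 66.4 and 528, *SNAI2* from 47.2 to 112 TPM to between 52.0 and 468, and *TFAP2A* from 1.82 to 20.3 TPM to between 2.81 and 110. *SOX10* went from 0.78 to 15.2 TPM to between 0.17 and 0.92, *FOXD3* from 9.27 to 93.5 TPM to between 0.30 and 14.4, and *SOX9* from 28.5 to 169 TPM to between 1.57 and 43.0. *TFAP2B* was at 3.16 to 146 TPM at P8 and 10.2 to 51.2 TPM later. The sum of 4 markers of limb and lateral plate mesenchyme was 228 to 293 TPM at P8, 414 and 493 at P9, and 259 to 543 at P10. The sum of 4 neuronal markers was 3.15 to 63.0 TPM at P8, and 47.3 to 170 TPM at P9 and P10. Their part in the member levels was not tested, and in bulk RNA fewer cells of a type and less RNA per cell cannot be told apart.

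EPI and MES cells compare the epithelial, CDX2-positive colonies with the flat mesenchymal cells around them. At P5, *CDX2* was at 257 to 445 TPM in EPI and 49.2 to 155 TPM in MES, and *TWIST1* at 30.0 to 136 and 200 to 301 TPM, so the fractions did not overlap. At P8 both genes overlapped between fractions, with *TWIST1* at 9.93 to 257 TPM in EPI and 75.6 to 376 TPM in MES. *NR2F1* had the largest fitted change of the members at both passages, and *NR2F2* the next largest at P5. Both COUP-TFs were higher in MES in each differentiation at both passages.

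At P5, *NR2F1* was at 2.92, 7.65 and 29.8 TPM in EPI and at 34.0, 25.8 and 72.1 TPM in MES, from 2.42 to 11.7 times higher within a differentiation. The groups overlapped across differentiations. The change was 2.14 (SE 0.36) with an FDR of 0.0179, which did not pass. At P8, *NR2F1* was at 0.81, 1.24 and 2.99 TPM in EPI and at 7.24, 4.28 and 13.8 TPM in MES, with no overlap (2.21, SE 0.38, FDR = 0.226). *NR2F2* was at 3.04, 5.71 and 15.5 TPM in P5 EPI and at 19.3, 15.4 and 33.1 TPM in P5 MES (1.72, SE 0.45, FDR = 0.0544). At P8 it was at 2.33, 7.05 and 8.69 TPM in EPI and at 16.9, 12.7 and 16.3 TPM in MES (1.47, SE 0.46, FDR = 0.317). Over the alternatives, the P8 change of *NR2F2* ran from 0.83 to 1.96, and that of *CRABP1* from 0.94 to 1.51.

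In edgeR 0 of 10 members passed between fractions at P5, and likewise 0% of the 18885 genes tested, though 4894 genes had an unadjusted p under 0.05. DESeq2 with the same block called 3.52% of genes at P5, among them *NR2F1* (FDR = 8.61e-09) and *NR2F2* (FDR = 0.00643). At P8, 0 of 10 members and 0% of genes passed in edgeR, with 2261 genes at an unadjusted p under 0.05. DESeq2 called 0.291% of genes at P8, and *NR2F1* was among them (FDR = 1.44e-07). Of the members, 5 had an unadjusted p under 0.05 in edgeR at each passage. This edgeR model gives each differentiation a single shift for both passages, so a shift that differs between passages stays in the error. With only the P5 fractions in the model, *NR2F1* had an FDR of 0.0214 and *NR2F2* of 0.0249, and neither passed. The sum of neural crest markers was 67.3 to 261 TPM in P5 EPI and 430 to 596 TPM in P5 MES, and 87.1 to 695 and 251 to 1004 TPM at P8. *SOX10*, which marks neural crest, was at 0.54 to 2.49 TPM in P5 EPI and 3.69 to 24.1 TPM in P5 MES. The sum of limb and lateral plate markers was 180 to 256 TPM in P5 EPI and 289 to 376 TPM in P5 MES. At P8 it overlapped between fractions, at 212 to 378 TPM in EPI and 230 to 384 TPM in MES. The part of these markers' cells in the COUP-TF levels was not tested.

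**Figure D4:**
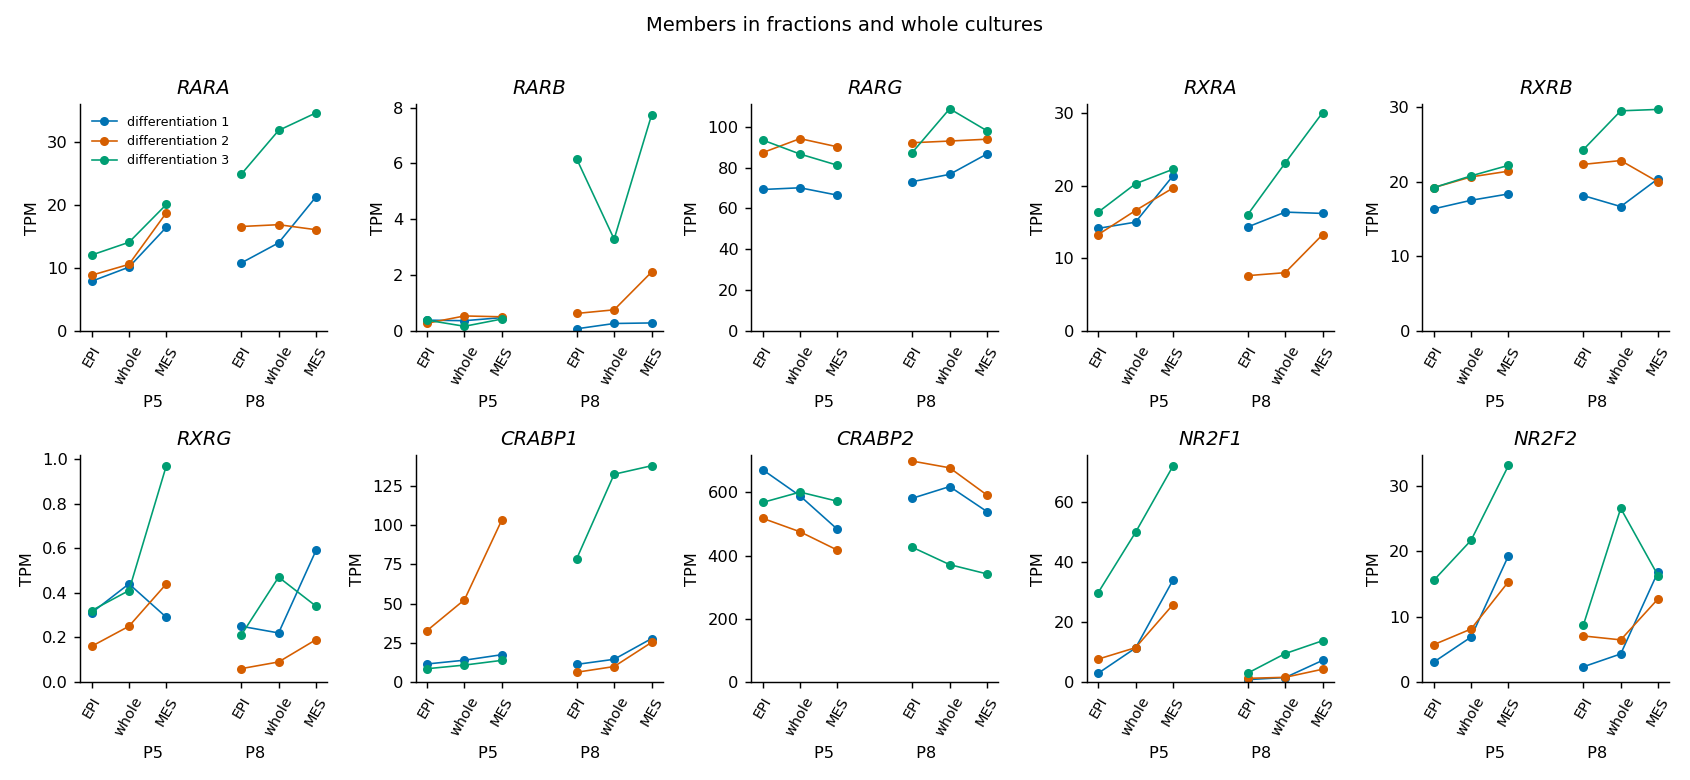
Level of each member (TPM, linear axis from 0) in EPI cells, whole cultures and MES cells of P5 and P8. Points are libraries, and lines join samples of the same differentiation and passage. *NR2F1* and *NR2F2* are higher in MES than in EPI in all 3 differentiations at both passages, and *NR2F1* is lower at P8 than at P5 in both fractions.

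Among the receptors, *RARA* was at 7.91, 8.87 and 12.1 TPM in P5 EPI and at 16.5, 18.8 and 20.1 TPM in P5 MES, with no overlap (log2 fold change 0.90, SE 0.21, FDR = 0.0377). At P8 the fractions overlapped, with *RARA* at 10.8, 16.6 and 24.9 TPM in EPI and 21.3, 16.1 and 34.7 TPM in MES. *RXRA* did not overlap at P5 either, at 14.1, 13.3 and 16.4 TPM in EPI and 21.4, 19.7 and 22.3 TPM in MES (0.59, SE 0.20, FDR = 0.109). With only the P5 fractions in the model, the spread was smaller for *RARA* (SE 0.07, FDR = 0.0105) and *RXRA* (SE 0.05, FDR = 0.0106). Neither passed. *RARG* hardly differed, with changes of -0.03 (SE 0.08) at P5 and 0.16 (SE 0.08) at P8. *CRABP1* was higher in MES in all 3 differentiations at both passages, by 1.51 to 4.05 times. Its P5 change was 1.23 (SE 1.05, FDR = 0.512) in the model of both passages. With only the P5 fractions in the model it was 1.01 (SE 0.26, FDR = 0.0503), which did not pass. *CRABP2* was lower in MES in all 3 at P8 (-0.23, SE 0.23, FDR = 0.721).

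The whole culture lay between its fractions in 3 of 3 differentiations at P5 for *RARA*, *RXRA*, *RXRB*, *CRABP1*, *NR2F1* and *NR2F2*, and at P8 for *CRABP1* and *NR2F1*. *NR2F2* at P8 was between them in 1 of 3. The whole culture of differentiation 3, at 26.6 TPM, lay above both fractions, and that of differentiation 2, at 6.45 TPM, below both.

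From P5 to P8, *NR2F1* was lower in both fractions and in all 3 differentiations. In MES it fell by 2.56 on the log2 scale (SE 0.37, FDR = 0.00892), the only member of 10 to pass there, against 0.699% of genes. It did not pass without differentiation 2 or 3, without the block (FDR = 0.102), or in the fits of all 47 or of the compared libraries alone. In EPI the change was -2.64 (SE 0.38, FDR = 0.0132), and 0 of 10 members passed, against 0.259% of genes, with 3 members and 5918 of 18885 genes at an unadjusted p under 0.05. DESeq2 called *NR2F1* in both, when it called 3.25% of genes in EPI and 3.99% in MES. The fraction effect of a member did not pass a test of its difference between passages, in edgeR (0% of genes, 1152 at an unadjusted p under 0.05) or in DESeq2 (0.0265% of genes). For *NR2F1* that interaction was 0.07 (SE 0.50), and no member had an unadjusted p under 0.05.

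Genes that make, move and break down retinoids, a list of 13, were taken as the pathway around the members. At 36 h against t0, 2 of 13 passed, both higher, when 2.71% of all genes passed. Among them was *STRA6*, a membrane receptor that takes up retinol (log2 fold change 3.02, SE 0.39, FDR = 1.38e-05). The median change over the list was -0.41, against 0.00 over all genes. At P2, 4 of 13 were higher and 1 lower than at t0, against 12.8% of all genes in both directions. *ALDH1A2*, the main enzyme that makes retinoic acid in the embryonic trunk, was at 0.20 to 0.37 TPM at t0 and reached 0.89 to 347 TPM at P1 (lowest in P1.r1), then 0.92 to 3.06 TPM at P5. *RDH10*, which makes retinal, was at 9.27 to 226 TPM at P2.

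The breakdown enzymes differed in their course. *CYP26A1* was at 14.9 to 26.4 TPM at t0 and already at 0.48 to 4.97 TPM at 36 h. In differentiation 1 it was at 49.4 TPM at P2 and 13.4 TPM at P3, against at most 2.08 TPM in the others. It was at most 0.12 TPM at P9 and 0.42 TPM at P10, where it passed as lower (FDR = 0.00165 and 3.98e-04). *CYP26B1* was at 0.03 to 0.34 TPM at t0 and at 9.95 to 20.8 TPM at P9 and 4.88 to 36.0 TPM at P10, where it passed as higher (FDR = 7.25e-07 and 3.22e-07). *DHRS3*, which reduces retinal to retinol, was at 0.22 to 0.39 TPM in P5 MES and at 5.58 to 8.67 TPM in P8 MES (log2 fold change 4.56, SE 0.36, FDR = 0.00297). In EPI it rose as well (3.78, SE 0.33, FDR = 0.00623). Over the list, 2 of 12 tested genes were higher and 1 lower in MES from P5 to P8, and 1 was higher in EPI, against 0.699% and 0.259% of all genes.

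Genes known to respond to retinoic acid did not move one way. Of 13 tested in a list of 14, 3 were higher and 3 lower at P9 against t0, and the same numbers at P10, when 19.7% and 18.3% of all genes passed. *RARB*, *STRA6* and *NRIP1* were the higher ones at P9, and *CYP26A1*, *RET* and *RARRES2* the lower ones. The list shares genes with the members and the pathway list, among them *RARB*, *CYP26A1* and *STRA6*. At P2, when 12.8% of all genes passed, 5 were higher, among them *MEIS1* (7.53, SE 1.13, FDR = 1.43e-05) and *MEIS2* (7.12, SE 0.98, FDR = 4.84e-06), TALE homeobox genes that pattern the trunk and limb, and 2 were lower. *MEIS1* was at 25.7 to 36.0 TPM at P3 and 0.36 to 1.29 TPM at P9 and P10. In MES, *MEIS1* fell by 2.83 on the log2 scale from P5 to P8 (SE 0.33, FDR = 0.00597).

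The likeness of patterns was described by Pearson's r over the 16 group means of log2(normalised counts + 1), among 13297 genes with a mean of at least 100 normalised counts. Points share libraries of the same differentiations, so r is a description. Between members, *RARG* and *RXRB* were most alike (r = 0.93), followed by *RARB* and *RARG* (0.862), and *RXRG* was most like *CRABP2* (0.841). *NR2F1* and *NR2F2* had an r of 0.806, and *CRABP1* and *CRABP2* of -0.74. The genes nearest to *RARG* were *INHBA* (0.963), *PMP22* (0.952) and *NXPH4* (0.947). Those nearest to *NR2F1* were *ABCA9* (0.973), *CCDC93* (0.964) and *PCDH7* (0.962), and to *NR2F2* *SMARCD3* (0.971), *GRK5* (0.970) and *STS* (0.967). For *CRABP2* they included *GAD1* (0.977) and *LINC01124* (0.961), and for *CRABP1* they were *INSR* (0.905), *SH3GL3* (0.905) and *GLB1L3* (0.903). *RARA* was nearest to *NFATC1* (0.946), *MAP1LC3B* (0.944) and *COL16A1* (0.934), and *RARB* to *TBC1D9B* (0.968), *MECOM* (0.963) and *KHNYN* (0.962). For *RXRA* they were *PTPRS* (0.949), *ROBO1* (0.931) and *COMMD2* (0.908), for *RXRB* *GMEB2* (0.970), *RABEP2* (0.960) and *CNRIP1* (0.959), and for *RXRG* *FBXL14* (0.958), *WNT5B* (0.938) and *PKIG* (0.925). The names depend on the scale. With log2(TPM + 1) or with the 12 whole-culture means, 2 of 20 repeats gave the same 3 genes.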

How the data were processed

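The authors trimmed reads with cutadapt 1.16, aligned them with STAR 2.5.2b to GRCh38 and quantified genes with RSEM 1.3.0, per the submitters' processing notes. The libraries were polyA-selected and single-end. The annotation release and strand setting are not given in the sources used here. The deposited expected counts share out reads that match several genes, and 9.33% were not whole. They were rounded for testing. The deposited TPM values, scaled by transcript length and library, were used for levels.

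Groups were compared with edgeR 4.0.16 in R 4.3.3 (glmQLFit, glmQLFTest, TMM factors, filterByExpr), with 1 model over the 35 whole cultures and 1 over the 12 fractions, and Benjamini-Hochberg adjustment over 21750 and 18885 genes. Differentiation number was a block in both, since the series' design text describes each experiment as a run through the time points, with 2 repeats at P9. Deviations of same-numbered libraries correlated by 0.589 or more between fractions of a passage, and by 0.206 to 0.583 on average between neighbouring time points from 36 h to P8 (lowest -0.121). The average was near 0 between t0 and 36 h (-0.007), P8 and P9 (0.01) and P9 and P10 (0.02), so the values do not show that a number marks the same differentiation at t0, P9 or P10, where the pairing rests on the study's design text. SE is the absolute log2 fold change over the root of F. The FDR, fold and mean thresholds are those of the study. In the test for any change, the size is the range of fitted values. No pair of replicates agreed within sampling noise (chi-square per gene of at least 25.4). On simulated counts, 22% of 2-fold and 86% of 4-fold changes had an FDR under 1% from 36 h to P5. Between fractions at P5 these shares were 68% and 100%. The fold minimum was not applied there. The simulation held no shifts between differentiations, so these shares do not give the power in the real counts.

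DESeq2 1.42.0 and other settings were tried as alternatives. All 10 members, listed retinoid genes in every comparison, and at most 3 genes per list and direction were to be named. Members and lists were chosen with earlier results of these data known, and comparisons with t0 were added later. Depth limits only scarce members, and intervals cover counting error only. Some listed genes are counted but not reported here by name.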

Additional observations from a re-analysis of the deposited data

How the results depend on the processing

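The counts of members that passed depended on single differentiations and on the test. For any change over the time course, 7 members became 2 to 8 when a differentiation was left out. From 36 h to P5, 3 became 0 to 4, and 1 with the compared libraries alone. Over all time points against t0, 38 calls became 12 to 40, and between consecutive time points 1 became 1 to 3. At P9 and P10 against P8, 0 became 0 to 1, and in the fractions from P5 to P8, EPI went from 0 to between 0 and 1 and MES from 1 to between 0 and 1. At an FDR under 5%, 1 member passed at P9 and P10 against P8 (*RARB*, against 3.61% of genes), 1 between P5 fractions (*NR2F1*, 2.66%), 1 in EPI from P5 to P8 (*NR2F1*, 2.61%) and 4 between consecutive time points (0% to 4.43% at each step). With no fold minimum, 2 passed at 36 h against t0 (*RXRB* joined) and 2 between consecutive time points, and with no minimum on the mean also 2 and 2 (*RXRG* joined at 36 h).

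DESeq2 with the block called 1 member at P9 and P10 against P8, 2 between P5 fractions, 1 between P8 fractions, 1 in EPI from P5 to P8 and 2 between consecutive time points. With no filter on low counts 1 passed in EPI from P5 to P8. Without P1.r1 and P10.r1, 2 passed at P9 and P10 against P8 and 3 between consecutive time points, where 2 passed without 36h.r1, an alternative chosen after seeing the data. In MES from P5 to P8, 0 passed with all 47 libraries in one fit and 0 with the compared libraries alone.

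Without the replicate block 0 passed in MES from P5 to P8, and 6 of 10 for any change, without *RARA*. The block moved no other count of members by over 1.5 times. No fitted change of a member that was called reversed. The cause of these shifts was not tested. Depth limits *RARB* and *RXRG* at t0, where a library held at most 6 counts of either, and *NR2F1* in 36h.r2 and 36h.r3, with 1 count each. Without differentiation 1 or 2, P9 held 1 library, assumed to vary like the other groups.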

Other observations

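Receptor coregulators, a list of 13 genes, were all measured above the low-count filter. At P9 and at P10 against t0, 3 of 13 were higher and none lower in edgeR, with median changes of 0.65 and 0.43 over the list, against 0.02 and 0.01 over all genes. Of all genes tested, 19.7% and 18.3% passed there. These were *CREBBP*, a histone acetyltransferase that serves as a coactivator (P9, log2 fold change 1.65, SE 0.13, FDR = 6.96e-10), *NRIP1*, a corepressor that ligand-bound receptors recruit (1.97, SE 0.39, FDR = 1.74e-04), and *NCOA1*, a p160 coactivator (1.23, SE 0.22, FDR = 5.42e-05). Named for its role, the corepressor *NCOR1*, which unliganded RARs bind, was at 67.8 to 144 TPM over the 47 libraries. From 36 h to P5 *KAT2B* alone passed, higher (2.27, SE 0.52, FDR = 0.00169), when 8.33% of all genes passed.

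Of 15 other nuclear receptors, among them RXR partners and NR2 family members, 14 were tested. At P9 against t0, 2 were higher and 2 lower, when 19.7% of all genes passed. *NR6A1*, an orphan receptor of early embryos and germ cells, fell by 7.79 on the log2 scale (SE 0.61, FDR = 7.61e-10), and *NR1H3*, an oxysterol receptor, fell by 2.04 (SE 0.18, FDR = 6.44e-09). *PPARD* (1.18, SE 0.27, FDR = 7.09e-04) and *THRA* (1.16, SE 0.21, FDR = 8.73e-05) were the higher ones. At P8 against P5, *NR6A1* was 1 of the 2 genes of all 21750 that passed (-2.77, SE 0.40, FDR = 0.00534). *NR2F6*, a COUP-TF relative named for its role, ran from 23.0 to 52.6 TPM with no such call. Of 2 other lipid carriers, *FABP7* was lower at P9 (-3.31, SE 0.80, FDR = 0.00141), and *FABP5*, named because it also binds retinoic acid, ran from 41.1 to 843 TPM.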
